A study of Mus musculus with 3 samples.

Results

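The PDGF ligands and receptors were followed in differentiated C2C12 cells that lacked, regained or kept Drp1 by their labels. The members were the 4 ligand genes Pdgfa, Pdgfb, Pdgfc and Pdgfd and the receptor genes Pdgfra and Pdgfrb, chosen by gene symbol, 6 of 46316 symbols in the deposited tables. All 6 had a mean of 1 CPM or more (counts per 1000000 scaled counts), as did 13381 genes in all, and Pdgfd did so through the WT library alone.

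C2C12 are immortalised mouse myoblasts whose cells fuse to myotubes in culture, and RNA was sequenced from 3 libraries of them. KO cells carried a Drp1 knockout (Drp1 is a GTPase of mitochondrial division), rescue cells were the same Drp1 knockout transiently expressing FLAG-Drp1, and WT cells had the wild-type genotype. All 3 were collected 4 days after differentiation began, and each group was 1 library. The sources used here do not give how the knockout was made or whether the cells were 1 clone. With 1 library per group nothing was checked by replicates, every statement describes these libraries only, and the intervals are 95% counting intervals that cover counting error only.

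Platelet-derived growth factors are secreted dimers that drive the growth and movement of mesenchymal cells through receptor tyrosine kinases. PDGF-A and PDGF-C act mainly on receptor alpha, PDGF-D mainly on receptor beta, and PDGF-B on both. PDGF-A and PDGF-B are cut by furin-like proteases inside the cell, whereas PDGF-C and PDGF-D carry a CUB domain that is removed outside it, by proteases such as tPA for PDGF-C and uPA for PDGF-D. In muscle, receptor alpha is best known from fibro-adipogenic progenitors and receptor beta from mural cells of vessels.

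The libraries were of like depth, with 13790417 counts over gene rows in KO, 13925296 in rescue and 13894114 in WT. Dnm1l, the gene of Drp1, had 1284 counts in KO, 1481 in rescue and 1823 in WT. It was thus 1.39-fold lower in KO than in WT (log2 ratio -0.48, interval -0.58 to -0.38). Rescue, labelled as expressing FLAG-Drp1, exceeded KO only 1.16-fold, at a log2 ratio of 0.21 (interval 0.10 to 0.32). Against WT the log2 ratio of rescue was -0.27 (interval -0.37 to -0.17), so the counts did not reach those of WT. Whether FLAG-Drp1 reads would be counted in Dnm1l is not given by the labels. A count over the whole transcript does not check an edit of a few bases. Muscle genes were abundant in every library. Desmin (Des) had 30192 counts in KO, 33501 in rescue and 42605 in WT, and myogenin (Myog) had 16122 in KO, 17277 in rescue and 11853 in WT. The endothelial markers were at or near 0, with Pecam1 and Emcn at 0 counts in all 3 libraries and a sum over the 6 listed genes of 0.797 CPM in KO, 1.02 CPM in rescue and 1.71 CPM in WT.

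Among the ligands, Pdgfd was nearly absent from the KO and rescue libraries, Pdgfb was higher there than in WT, and Pdgfa and Pdgfc differed little. Both receptor genes were higher in KO and in rescue than in WT, Pdgfrb by more than Pdgfra. Levels of different genes are given in TPM, the count per kilobase of the transcript row used, scaled to 1000000 over gene rows. In KO the order from high to low was Pdgfrb, Pdgfc, Pdgfa, Pdgfb, Pdgfra and Pdgfd, and the same order held in rescue. In WT it was Pdgfc, Pdgfa, Pdgfrb, Pdgfd, Pdgfb and Pdgfra.

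Pdgfrb stood at 85.8 TPM in KO (interval 82.7 to 89.1), 63.0 in rescue (60.4 to 65.6) and 22.8 in WT (21.3 to 24.5). In the same unit Pdgfc was at 52.8 in KO (49.8 to 56.0), 42.4 in rescue (39.8 to 45.1) and 36.8 in WT (34.3 to 39.3). The level of Pdgfa was 40.0 TPM in KO (36.5 to 43.7), 36.7 in rescue (33.5 to 40.0) and 33.5 in WT (30.4 to 36.8). In WT the intervals of the neighbours Pdgfc and Pdgfa overlapped, as did those of Pdgfrb and Pdgfd. In rescue the intervals of Pdgfc and Pdgfa overlapped slightly, and in KO no neighbours in the order overlapped.

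Lower in the order, Pdgfb was at 17.7 TPM in KO (15.9 to 19.7), 15.8 in rescue (14.1 to 17.6) and 7.44 in WT (6.30 to 8.73). Pdgfra was at 5.98 TPM in KO (5.25 to 6.79), 4.36 in rescue (3.76 to 5.02) and 2.62 in WT (2.16 to 3.16). Pdgfd was at 0.105 TPM in KO (0.0127 to 0.380), 0.241 in rescue (0.0781 to 0.562) and 20.6 in WT (18.6 to 22.6). It was the only member under 1 TPM in any library. Such levels depend on the length of the row: with the shortest mRNA row that holds 90% of the count, a choice made after the data were seen, Pdgfb was at 25.8 TPM in KO, 23.0 in rescue and 10.8 in WT.

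**Figure D1:**
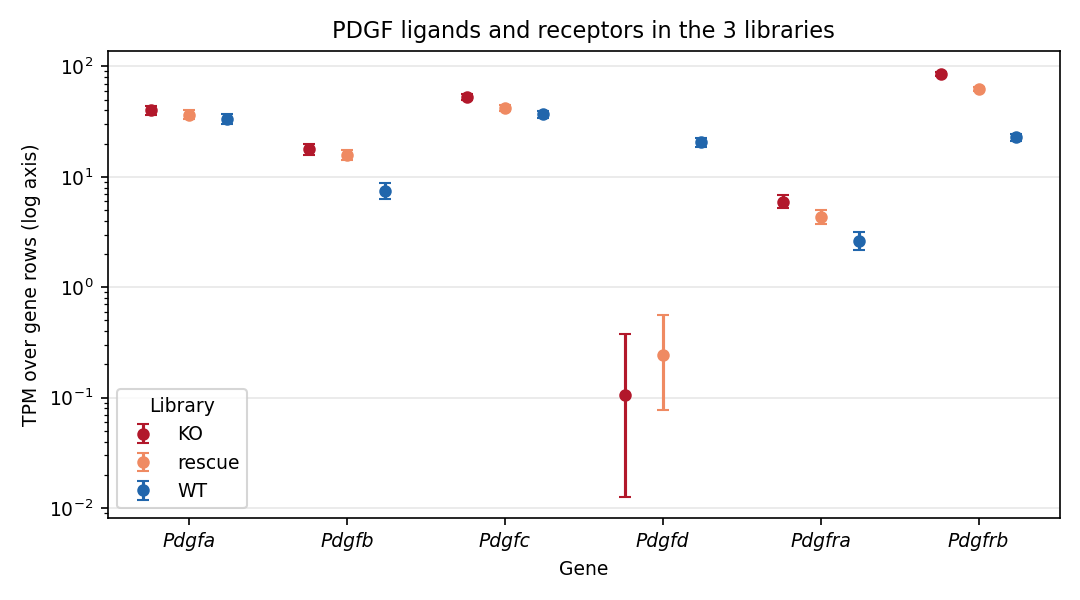
TPM over gene rows (log axis) of the 6 PDGF genes, with 1 point per library for KO, rescue and WT and bars for the 95% counting interval. Pdgfd lies at 0.105 TPM in KO and 0.241 in rescue against 20.6 in WT, while Pdgfb, Pdgfra and Pdgfrb lie higher in KO and rescue than in WT.

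Pdgfd, the ligand of receptor beta, had 2 counts in KO, 5 in rescue and 416 in WT. Its log2 ratio was -7.35 in KO against WT (interval -10.73 to -5.81) and -6.21 in rescue against WT (interval -7.98 to -5.12). On a linear scale KO was 164-fold below WT, with bounds of 56.2-fold and 1693-fold, and rescue was 74.3-fold below WT, with bounds of 34.7-fold and 253-fold. The 5 counts in rescue and the 2 in KO gave a log2 ratio of 1.14 whose interval, -1.29 to 4.72, spans 0, so a difference between these libraries was not detectable at this depth.

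All 7 transcript rows of Pdgfd were low in KO and rescue. Their counts ranged from 1 to 3 in KO, from 1 to 8 in rescue and from 180 to 416 in WT. The rows numbered X1 and X2 by RefSeq are short, at 1414 and 1221 bases, and held 47.1% and 43.3% of the count of the row used in WT. Row X1 had 3 counts in KO and 8 in rescue, more than the row used, so its counts are not a subset of those of the row used.

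Pdgfb, which binds both receptors, had 338 counts in KO, 329 in rescue and 151 in WT. KO stood 2.27-fold above WT (log2 ratio 1.19, interval 0.91 to 1.47). The excess of rescue over WT was 2.22-fold (log2 ratio 1.15, interval 0.87 to 1.44). Rescue and KO differed by a log2 ratio of -0.04 (interval -0.26 to 0.19), within counting error. Its 7 rows gave log2 ratios of 1.14 to 1.19 in KO against WT, so the choice of row mattered little.

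Pdgfc, a ligand of receptor alpha, had 1155 counts in KO, 1013 in rescue and 855 in WT. KO was 1.37-fold above WT (log2 ratio 0.46, interval 0.33 to 0.59) and rescue 1.21-fold above WT (log2 ratio 0.27, interval 0.14 to 0.41). Rescue was 1.14-fold below KO (log2 ratio -0.19, interval -0.31 to -0.06). The value in rescue thus lay between those of KO and WT, and no pair of these libraries was 2-fold apart.

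Pdgfa, the other ligand of receptor alpha, had 497 counts in KO, 498 in rescue and 443 in WT. The log2 ratio was 0.19 in KO against WT (interval 0.00 to 0.38), 0.20 in rescue against WT (interval 0.01 to 0.39) and 0.01 in rescue against KO (interval -0.18 to 0.19). The excess over WT was therefore at the edge of counting error. Splice forms of Pdgfa differ in a basic tail that holds the protein on the cell surface. The 8 rows could not be told apart here, since their counts ranged only from 477 to 497 in KO, from 486 to 498 in rescue and from 421 to 443 in WT.

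Added up per length, ligand RNA was similar in the 3 libraries while its make-up differed. The 4 ligands summed to 111 TPM in KO, 95.1 in rescue and 98.2 in WT. Pdgfd made up 0.0951% of that sum in KO, 0.253% in rescue and 20.9% in WT. Pdgfb made up 16.0% in KO, 16.6% in rescue and 7.58% in WT. The share of Pdgfc was 47.8% in KO, 44.6% in rescue and 37.4% in WT, and that of Pdgfa was 36.1% in KO, 38.5% in rescue and 34.1% in WT. These sums and shares are descriptions and say nothing of protein.

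**Figure D2:**
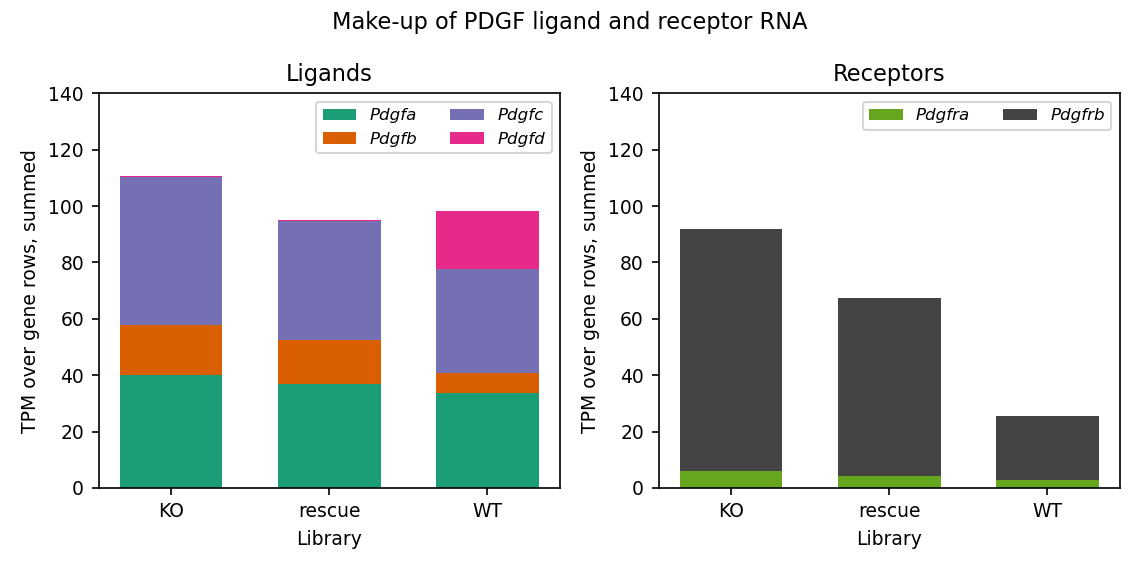
Stacked TPM over gene rows of the 4 ligands (left) and the receptors (right) in the KO, rescue and WT libraries. The ligand sums are 111 TPM in KO, 95.1 in rescue and 98.2 in WT, with Pdgfd visible in WT only, and the receptor sums are 91.8 TPM in KO, 67.3 in rescue and 25.5 in WT.

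The sequence before the start of a gene is shown for Pdgfd, which was nearly silent in KO and rescue, for Pdgfra, which was higher there, and for Pdgfc and Pdgfa, which differed little, so that their letters can be compared. The windows are the 250 bases before an annotated start, 5′ to 3′ on the strand of the gene, from RefSeq on build GRCm38.p6, an older build than the GRCm39 named in the submitters' processing notes. The table matched 4 of the 6 members, and the windows of the other members are not shown. Capitals mark matches on either strand to the searched motifs. These were a TATA box, with the letters TATAAA, and a GC box, with the letters GGGCGG. An E-box was searched as CANNTG and an AP-1 site as TGANTCA. The letters of the NF-Y box were CCAAT. For a C/EBP-ATF composite site they were TGATGNAA. No matches overlapped each other.
Pdgfd, chr9:6168236-6168485, plus strand: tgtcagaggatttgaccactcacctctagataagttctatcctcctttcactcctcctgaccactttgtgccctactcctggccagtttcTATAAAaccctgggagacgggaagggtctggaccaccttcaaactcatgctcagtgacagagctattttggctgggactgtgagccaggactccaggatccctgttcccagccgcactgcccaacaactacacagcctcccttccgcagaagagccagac
Pdgfra, chr5:75152001-75152250, plus strand: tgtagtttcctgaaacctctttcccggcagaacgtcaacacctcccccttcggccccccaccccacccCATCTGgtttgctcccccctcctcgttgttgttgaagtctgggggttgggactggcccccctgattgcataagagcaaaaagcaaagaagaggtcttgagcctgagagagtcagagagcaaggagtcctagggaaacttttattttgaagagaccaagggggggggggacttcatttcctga
Pdgfc, chr3:81036166-81036415, plus strand: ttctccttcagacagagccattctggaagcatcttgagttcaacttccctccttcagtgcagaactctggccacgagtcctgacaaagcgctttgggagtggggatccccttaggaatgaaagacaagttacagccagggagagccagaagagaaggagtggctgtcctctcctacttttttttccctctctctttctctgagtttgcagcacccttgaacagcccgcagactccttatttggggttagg
Pdgfa, chr5:138994945-138995194, minus strand: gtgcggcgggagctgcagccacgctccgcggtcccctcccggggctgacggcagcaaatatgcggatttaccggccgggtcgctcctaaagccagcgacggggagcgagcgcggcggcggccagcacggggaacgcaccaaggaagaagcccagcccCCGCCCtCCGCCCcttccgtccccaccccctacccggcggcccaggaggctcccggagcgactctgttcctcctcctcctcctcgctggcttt

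Among these windows the TATA box letters occurred in that of Pdgfd alone, 160 to 155 bases before the start, and 12.4% of 32851 RefSeq windows of the same length hold them. The window of Pdgfra held an E-box match, found in 66.2% of windows. The window of Pdgfa shown held 2 GC box matches, found in 32.7% of windows, and had 28 CG pairs, against 3 in Pdgfd, 4 in Pdgfra, 3 in Pdgfc and a median of 6 over all windows. None of the 4 windows held the NF-Y letters, which 33.8% of windows hold, the AP-1 letters, which 6.75% hold, or the C/EBP-ATF letters, which 3.45% hold. A match describes letters only, and genes can have other starts.

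Among the receptors, Pdgfrb had 2837 counts in KO, 2274 in rescue and 803 in WT. KO was 3.59-fold above WT (log2 ratio 1.85, interval 1.73 to 1.96). Rescue exceeded WT 2.89-fold (log2 ratio 1.53, interval 1.41 to 1.65). Rescue was 1.25-fold below KO (log2 ratio -0.32, interval -0.40 to -0.24). The level in rescue was thus nearer to KO than to WT. Among the 13381 genes with a mean of 1 CPM or more, the TPM of Pdgfrb lay at percentile 85.2 in KO, 80.9 in rescue and 54.5 in WT.

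Pdgfra had 240 counts in KO, 191 in rescue and 112 in WT. KO was 2.18-fold above WT (log2 ratio 1.12, interval 0.80 to 1.46) and rescue 1.74-fold above WT (log2 ratio 0.80, interval 0.45 to 1.15). Rescue was 1.25-fold below KO (log2 ratio -0.33, interval -0.61 to -0.05). It stayed at low percentiles of TPM, 22.7 in KO, 19.5 in rescue and 13.0 in WT. The KO library held relatively more counts of long transcripts, and with the trend of the log2 ratio on length removed the KO against WT values were 0.99 for Pdgfra and 1.76 for Pdgfrb.

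Receptor beta outweighed receptor alpha in every library, and by more in KO and rescue. The ratio of Pdgfrb to Pdgfra in TPM was 14.4 in KO, 14.5 in rescue and 8.70 in WT. That ratio was 1.65-fold higher in KO than in WT (exact conditional interval 1.29 to 2.10) and 1.66-fold higher in rescue than in WT (interval 1.28 to 2.14). Rescue and KO differed by 1.01-fold (interval 0.823 to 1.23). The receptor sum was 91.8 TPM in KO, 67.3 in rescue and 25.5 in WT, which is 0.830 of the ligand sum in KO, 0.708 in rescue and 0.259 in WT.

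Short transcript rows of Pdgfrb did not follow its long rows in rescue against KO. Row X2, of 2795 bases, had 937 counts in KO, 607 in rescue and 232 in WT, and its log2 ratio in rescue against KO was -0.62 (interval -0.77 to -0.47), beyond the -0.32 of the row used. Row X1, of 2348 bases, also gave -0.62 (interval -0.78 to -0.46). Set against the row used, row X2 held 33.0% of its count in KO (exact binomial interval 31.3% to 34.8%), 26.7% in rescue (24.9% to 28.6%) and 28.9% in WT (25.8% to 32.2%), on the assumption that its reads are also counted in the row used. The interval of KO lay above that of rescue and overlapped that of WT. At the length of the row used, 5413 bases, the library-wide trend in rescue against KO was -0.09, and its part in the difference between rows was not tested.

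Rows of Pdgfra also differed in size. The rows numbered 3 and 4 had 93 counts in KO, 68 in rescue and 35 in WT each, which is 38.8% of the row used in KO (32.6% to 45.2%), 35.6% in rescue (28.8% to 42.8%) and 31.2% in WT (22.8% to 40.7%). These intervals overlapped. The shortest row, numbered 5 and of 1662 bases, had 67 counts in KO, 39 in rescue and 22 in WT. It held 27.9% of the count of the row used in KO, 20.4% in rescue and 19.6% in WT, with overlapping intervals. Its log2 ratio in rescue against KO was -0.77 (interval -1.39 to -0.19), and rows 3 and 4 gave -0.45 (interval -0.92 to 0.02). These values lay beyond the -0.33 of the row used, in the direction of the short Pdgfrb rows, but their intervals included -0.33. The rows of one gene share reads and are no independent measurements.

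**Figure D3:**
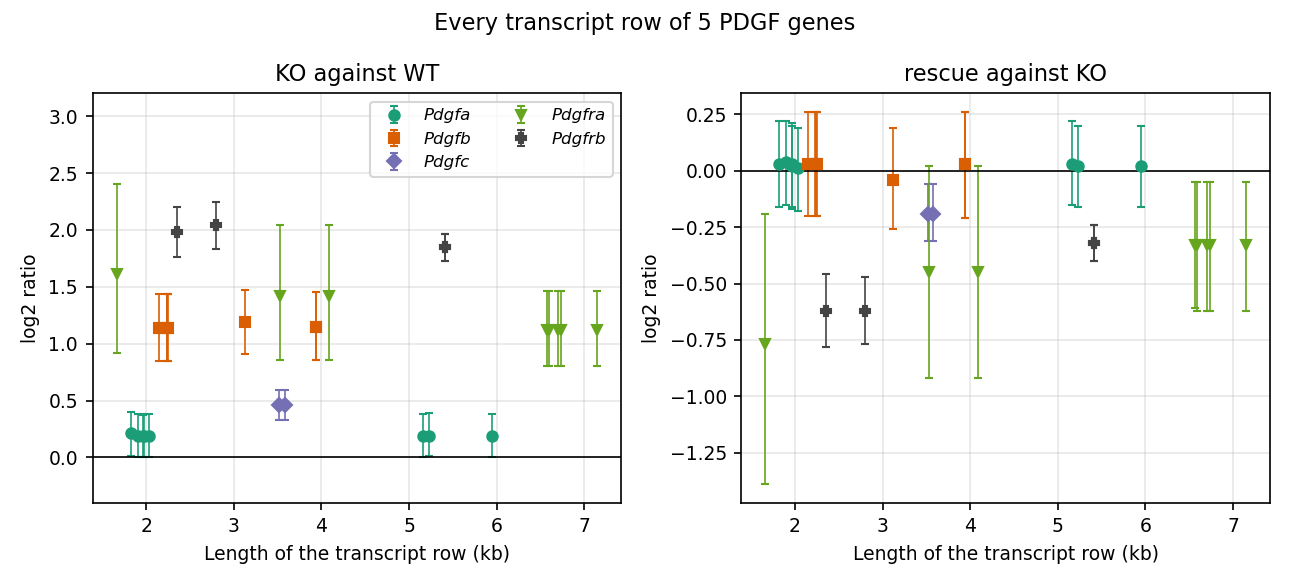
Log2 ratio of each transcript row against row length in kb for 5 PDGF genes, in KO against WT (left) and rescue against KO (right), with 95% counting intervals. Pdgfd, whose rows lie at -7.35 to -5.79 in KO against WT, is left out for scale, and in rescue against KO both short Pdgfrb rows lie at -0.62 and the long ones at -0.32.

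Counted by a threshold of 2-fold, 3 of 6 members were higher in KO than in WT (Pdgfb, Pdgfra and Pdgfrb) and 1 was lower (Pdgfd). Over all 13381 genes 5.35% reached that excess in KO and 4.07% that deficit. The members and the threshold were chosen with earlier results of these data known, so the shares here are description only. Pdgfd passed the filter through WT alone, the library where it was high. In rescue against WT, 2 members were at least 2-fold higher (Pdgfb and Pdgfrb) and 1 lower (Pdgfd), beside 4.59% and 3.06% of all genes. In rescue against KO, 1 member passed 2-fold, Pdgfd with its 5 and 2 counts, and none was 2-fold lower, beside 1.30% and 0.575% of all genes. The median log2 ratio of the 6 members was 0.79 for KO over WT, beside 0.0005 over all genes. It was -0.11 for rescue over KO, beside 0.0029, and 0.53 for rescue over WT, beside 0.0099. The comparisons share libraries, so they are given side by side and not as separate evidence. In bulk RNA, more cells with a transcript and more transcript per cell cannot be told apart.

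**Figure D4:**
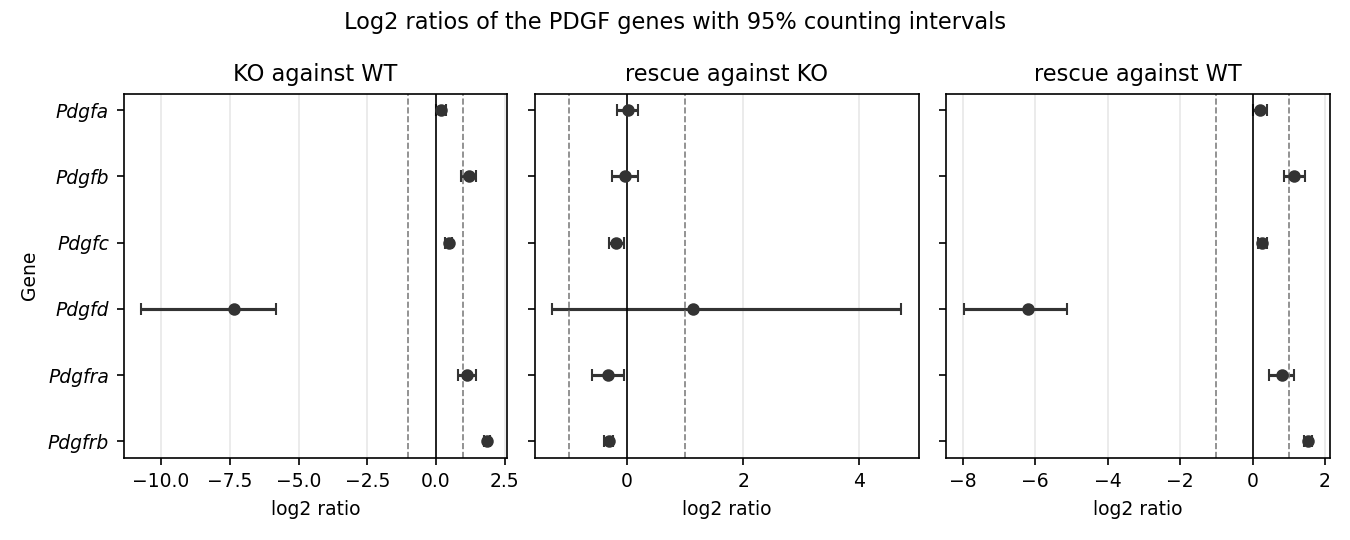
Log2 ratios of the 6 PDGF genes in KO against WT, rescue against KO and rescue against WT, each panel with its own axis, with 95% counting intervals and dashed lines at 2-fold. Pdgfd lies at -7.35 in KO against WT and Pdgfrb at 1.85, and in rescue against KO only the interval of Pdgfd crosses a dashed line.

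Related growth factors had mostly more counts in KO, and related receptor kinases were scarce. Of 14 listed relatives, 9 had a mean of 1 CPM or more. Of these 9, 2 were at least 2-fold higher in KO than in WT and 1 lower, while 8 lay above 0. The median log2 ratio was 0.40, beside 0.0005 over all genes. For this list and those below, the shares over all genes were 5.35% at least 2-fold higher and 4.07% lower in KO against WT. In rescue against KO they were 1.30% and 0.575%. Vegfc, a lymphatic growth factor, had 161 counts in KO and 27 in WT (log2 ratio 2.58, interval 2.01 to 3.25). Pgf, placental growth factor, had 344 in KO and 107 in WT (log2 ratio 1.71, interval 1.39 to 2.04). Vegfa, the main angiogenic factor, had 3190 in KO and 1684 in WT (log2 ratio 0.95, interval 0.86 to 1.03).

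The VEGF receptor gene Flt1, which reached 1 CPM in WT alone, was lower, with 11 counts in KO and 37 in WT (log2 ratio -1.68, interval -2.84 to -0.72). Kit and Flt4 had 0 counts in all 3 libraries, and Csf1r, a neighbour of the PDGF receptors in sequence, had 3 counts in KO, 0 in rescue and 1 in WT. In rescue against KO no relative passed 2-fold in either direction, and the median was -0.23.

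Among the listed proteases that free PDGF from its precursors and were measured, only Furin lay above 0 in KO against WT. The other measured genes of the list lay on both sides of 0. Of 10 listed proteases and inhibitors 8 were measured at 1 CPM or more, none of them at least 2-fold higher in KO than in WT and 2 lower. The median was -0.29, but -0.09 with the counts of all rows summed and -0.13 without the filter. Plau, the uPA gene, had 2514 counts in KO and 3732 in WT (log2 ratio -0.54, interval -0.62 to -0.47). Plat, the tPA gene, had 849 in KO and 1048 in WT (log2 ratio -0.28, interval -0.41 to -0.15).

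Both genes past 2-fold reached 1 CPM in WT alone, and so had passed the filter only through the library where they were high. Serpine2, protease nexin-1, had 5 counts in KO and 52 in WT (log2 ratio -3.23, interval -5.03 to -2.04), and the furin-like protease Pcsk6 had 4 in KO and 32 in WT (log2 ratio -2.83, interval -4.94 to -1.48). Furin itself had 2077 in KO and 1947 in WT (log2 ratio 0.12, interval 0.03 to 0.21). In rescue against KO, 1 of the 8 was at least 2-fold higher, Serpine2, with 11 and 5 counts and an interval of -0.50 to 3.02, which falls under 2-fold with 2 added to each count or the length trend removed, none was lower and the median was 0.01.

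Co-receptors and binding partners of the PDGF receptors mostly had higher counts in KO. All 8 were measured, and 7 lay above 0 in KO against WT. Of the 8, 1 was at least 2-fold higher in KO than in WT and none lower. The median was 0.72 (0.55 with the length trend removed), beside 0.0005 over all genes. Itgb3, an integrin subunit that joins receptor beta at the membrane, had 1207 counts in KO and 525 in WT (log2 ratio 1.23, interval 1.08 to 1.38). The neuropilin Nrp2 had 2417 in KO and 1244 in WT (log2 ratio 0.98, interval 0.88 to 1.08), and passed 2-fold with the counts of all rows summed, at 1.04. Lrp1, an endocytic receptor that is phosphorylated by receptor beta, had 25085 in KO and 15223 in WT (log2 ratio 0.75, interval 0.72 to 0.78).

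In rescue against KO none of the 8 passed 2-fold, and the median was -0.35. Lrp1 had 16548 counts in rescue and 25085 in KO (log2 ratio -0.60, interval -0.63 to -0.57). Thbs1, thrombospondin 1, had 13614 in rescue and 17602 in KO (log2 ratio -0.37, interval -0.40 to -0.34). Sparc, a matrix protein that binds PDGF-B, stayed close to level, with 30469 counts in KO, 30964 in rescue and 31815 in WT. With the length trend removed the median was 0.55 for KO over WT and -0.24 for rescue over KO.

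The relay inside the cell differed less than the receptors. None of its 32 genes passed 2-fold in KO against WT, with a median of -0.08, and none did so for rescue over KO, with a median of -0.05. Its extremes in KO against WT were Fyn, a Src family kinase, with 5966 counts in KO and 3507 in WT (log2 ratio 0.79, interval 0.73 to 0.85), and the Ras gene Hras, with 449 in KO and 811 in WT (log2 ratio -0.83, interval -1.0 to -0.66). Of the PI3-kinase subunits, Pik3r1 had 687 counts in KO and 450 in WT (log2 ratio 0.64, interval 0.46 to 0.81) and Pik3cb had 214 in KO and 364 in WT (log2 ratio -0.74, interval -0.99 to -0.49).

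Genes that restrain receptor signalling leaned higher in KO. None of 16 passed 2-fold, 13 lay above 0 and 3 below, and the median was 0.27 in KO against WT, beside 0.0005 over all genes. Socs3 had 768 counts in KO and 405 in WT (log2 ratio 0.95, interval 0.77 to 1.13), and Spry1, a Sprouty inhibitor of the Ras pathway, had 327 in KO and 186 in WT (log2 ratio 0.84, interval 0.58 to 1.11). Its relative Spry4 had 115 in KO and 67 in WT (log2 ratio 0.80, interval 0.36 to 1.26). Socs1, which like Socs3 restrains cytokine signalling, had 75 in KO and 49 in WT (log2 ratio 0.63, interval 0.10 to 1.19). In rescue against KO none passed 2-fold, 1 lay above 0 and 15 below, with a median of -0.18, beside 0.0029 over all genes. With the length trend removed the list median was 0.20 for KO over WT and -0.08 for rescue over KO.

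Immediate early genes, which PDGF and other mitogens induce, lay on both sides of 0. Of 18 listed genes 17 were measured at 1 CPM or more, with 2 at least 2-fold higher in KO than in WT and a median of -0.16. None was 2-fold lower with the scaling used, but Fosl1 lay on the line and passed it with library totals, with DESeq2 size factors and with the counts of all rows summed. Atf3, also a stress response gene, had 762 counts in KO and 199 in WT (log2 ratio 1.96, interval 1.74 to 2.19), and the matrix protein gene Ccn2 had 2027 in KO and 955 in WT (log2 ratio 1.11, interval 1.0 to 1.22). The AP-1 genes Fosl1 and Fos were lower, Fosl1 with 173 counts in KO and 352 in WT (log2 ratio -1.0, interval -1.27 to -0.73) and Fos with 30 in KO and 59 in WT (log2 ratio -0.94, interval -1.64 to -0.29). In rescue against KO none passed 2-fold and the median was 0.02.

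**Figure D5:**
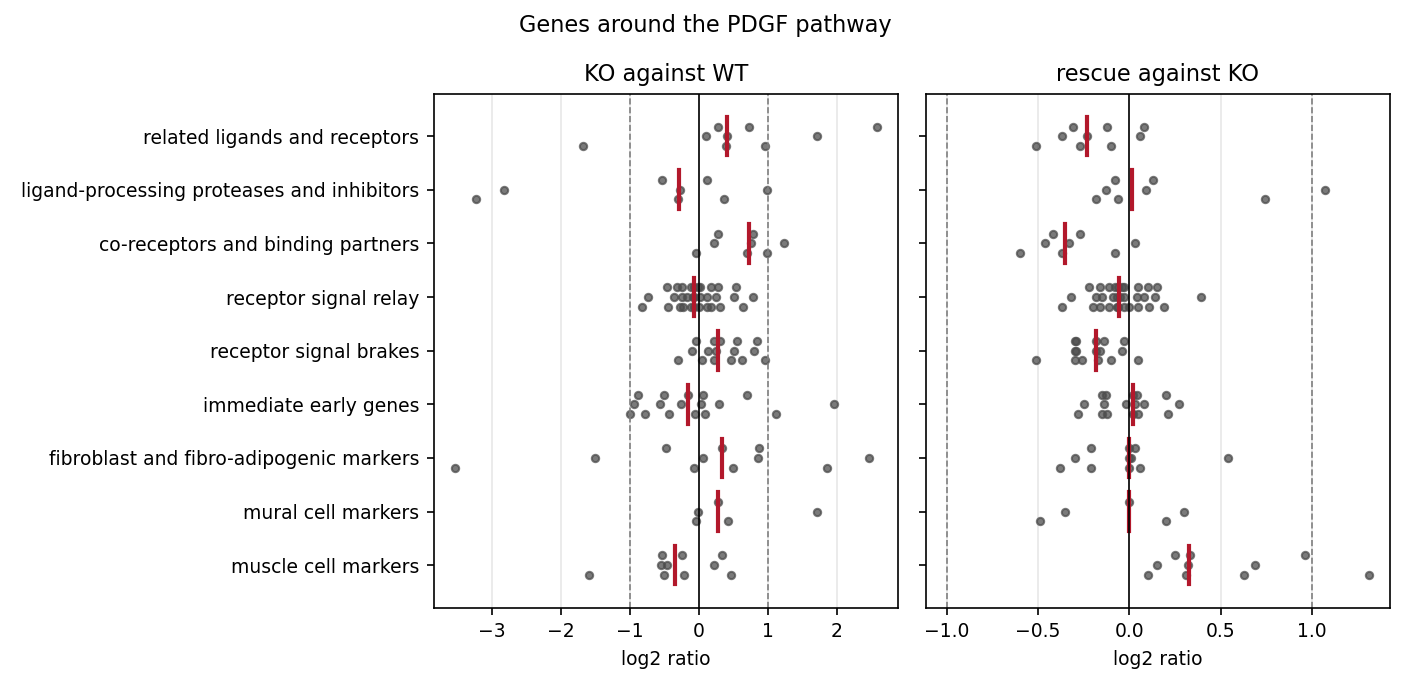
Log2 ratio of each gene with a mean of 1 CPM or more in 9 lists around the PDGF pathway, in KO against WT (left) and rescue against KO (right), with red bars at list medians and dashed lines at 2-fold. Co-receptors have medians of 0.72 and -0.35 in these panels, the signal relay -0.08 and -0.05 and the muscle markers -0.36 and 0.33.

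Markers of cells that normally carry these receptors gave mixed values beside the higher receptor counts. Of 14 fibroblast and fibro-adipogenic markers 11 were measured at 1 CPM or more, 2 of them at least 2-fold higher and 2 lower in KO than in WT, and the sum over the list was 7260 CPM in KO, 5897 in rescue and 4180 in WT. The 3 collagens of the list made up most of that, with 6779 CPM in KO, 5406 in rescue and 3344 in WT. The other 11 markers summed lower in KO, to 481 CPM in KO, 491 in rescue and 836 in WT. Most of this lower sum came from Dcn, at 130 CPM in KO and 369 in WT, and Ly6a, at 309 in KO and 430 in WT. Of the other measured non-collagen markers, Cd34, Dpt, Osr1 and Mfap5 lay above 0 in KO against WT, and Pi16 and Clec3b below. Col1a1, a collagen, had 18763 counts in KO and 5243 in WT (log2 ratio 1.86, interval 1.82 to 1.91), whereas Dcn, decorin, had 1787 in KO and 5177 in WT (log2 ratio -1.51, interval -1.59 to -1.43). Dpt, at 0.285 CPM in WT, passed the filter only through KO and rescue. It had 24 counts in KO and 4 in WT (log2 ratio 2.47, interval 1.07 to 4.6). Clec3b, which reached 1 CPM in WT alone, had 3 in KO and 41 in WT (log2 ratio -3.54, interval -6.08 to -2.10). Tcf21 had 0 counts in all 3 libraries, Thy1 had 1 count in KO and 0 in rescue and WT, and the stem antigen Ly6a had 4260 in KO, 4344 in rescue and 6036 in WT.

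Of 11 mural cell markers 5 were measured at 1 CPM or more, with 1, Mcam, at least 2-fold higher in KO than in WT (43 and 13 counts, log2 ratio 1.71, interval 0.83 to 2.77). Mcam lay under 1 CPM in WT, at 0.926, and passed the filter through KO and rescue. Defining pericyte genes were at or near 0, with Kcnj8 and Higd1b at 0 counts in all 3 libraries and Rgs5 with 1 count in KO, 1 in rescue and 0 in WT. The list sum was 4520 CPM in KO, 5425 in rescue and 3779 in WT, most of it from Acta2, smooth muscle actin, which differentiating myoblasts also make, with 57215 counts in KO, 70373 in rescue and 48154 in WT. Notch3, a receptor of mural cells, had 2468 counts in KO, 1748 in rescue and 2521 in WT, and the peptidase gene Anpep had 1354 in KO, 1063 in rescue and 1028 in WT. The median of the muscle markers was -0.36 for KO over WT (-0.20 with the length trend removed) and 0.33 for rescue over KO, with 1 of 10 at least 2-fold lower in KO than in WT, Ckm, and the same gene 2-fold higher in rescue than in KO. Ckm, the muscle creatine kinase gene, had 1424 counts in KO, 3527 in rescue and 4406 in WT. Of the 10 muscle markers 7 lay below 0 in KO against WT and 3 above. Those above were Myog, Myh3 (62250 counts in KO and 50576 in WT) and Acta1 (70182 in KO and 61533 in WT). The sum over the muscle list was 16828 CPM in KO, 21813 in rescue and 17228 in WT. The fast-fibre troponin gene Tnnt3 had 9738 counts in KO, 15043 in rescue and 11541 in WT, and its partner Tnnc2 had 6326 in KO, 12264 in rescue and 9325 in WT. Mylpf, a fast myosin light chain gene, had 26543 counts in KO, 42658 in rescue and 38484 in WT. These 3 had their lowest counts in KO and their highest in rescue. The part of cell make-up in the receptor counts was not tested.

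The genes with the most similar pattern were taken as those nearest in their log2 ratios of KO and of rescue against WT, over 3 libraries and 8997 genes with 200 or more counts in the highest library. Nearest to Pdgfd was Gprc5c, an orphan receptor with 1 count in KO, 4 in rescue and 498 in WT, at a distance of 1.137, and then Myo18b and Pnmal2. Nearest to Pdgfrb were Pycr1, a proline synthesis enzyme with 440 counts in KO, 375 in rescue and 130 in WT (distance 0.069), Fam20a and the protease gene Adamts1. Pdgfra lay nearest to Sphk1, a sphingosine kinase with 250 counts in KO, 202 in rescue and 118 in WT (distance 0.017), and then to Zfp395 and Dlg3. For Pdgfb the nearest were Arrdc3, Ddit4 and Tgtp2, whose counts are uncertain because it has a near-identical copy. Pdgfc lay nearest to Ric1, Edem2 and Vwa8, and Pdgfa to Fbxo45, Hmox2 and Rab10. With 3 libraries many genes share such a pattern, and no shared function is implied.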

How the data were processed

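Total RNA from TRIzol went into DNBSEQ-G400RS libraries, per the labels' protocols. The submitters' processing notes name cutadapt 1.9.1, HISAT2 2.2.1, featureCounts 2.0.0 and build GRCm39 (mm39). The sources used here do not give their settings, the strand or how multiply matching reads were treated. Counts of overlapping and antisense genes are therefore uncertain. The deposited count column holds whole read counts per transcript row, not normalized, over 139023 rows. The TPM and RPKM columns deposited by the authors are counts per kilobase, scaled per table, and recomputed TPM differed from the deposited TPM by at most 4.40e-06.

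For each gene the row with the highest count summed over the 3 libraries was used, the earliest in the table where rows tied. Counts were scaled with TMM factors (edgeR 4.0.16, R 4.3.3), and 0.5 was added to each count before the log2 ratio. Intervals are exact conditional (Clopper-Pearson) for ratios of counts, exact binomial for shares and exact Poisson for levels. With 1 library per group no test was run and no p-value is given. The ratio and its interval were tested on simulated counts drawn with counting error only. That is the error the interval assumes, so the simulation cannot speak to variation between cultures. Named were the 6 members, Dnm1l, up to 4 genes per list with 20 or more counts and the largest ratios of KO against WT or rescue against KO, and 3 like-pattern genes per member. Other named list genes were chosen after their values were seen. A gene of the protease list that the rule named is not reported here. The members, the 10 further lists and the threshold of 2-fold were chosen with earlier results of these data known. RefSeq tables of GRCm38.p6 gave only the sequences shown and the order of neighbouring genes.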

Additional observations from a re-analysis of the deposited data

How the results depend on the processing

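No paired analysis was possible because each group is 1 library, and for the same reason no library could be left out. The alternatives for the member ratios were library totals, DESeq2 1.42.0 size factors, the sum of all rows, 2 added to each count, the length trend removed, the lowest mRNA row and the deposited TPM. Of 18 member ratios, 15 kept their sign under all 7 alternatives, and the exceptions were those of Pdgfa, Pdgfb and Pdgfd in rescue against KO, which lie within counting error of 0. The side of 2-fold held for 16 of 18, the exceptions being Pdgfra for KO over WT, at 0.99 with the length trend removed, and Pdgfd for rescue over KO, at 0.81 with 2 added and 0.00 with the lowest row.

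Outside its counting interval moved only Pdgfrb. With the lowest row it was 1.98 for KO over WT, -0.62 for rescue over KO and 1.35 for rescue over WT, and in rescue against KO it was -0.22 with the length trend removed and -0.41 from the deposited TPM.

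Counts of genes depended on the filter. Without it the genes at least 2-fold higher and lower were 3331 and 3606 for KO over WT, 2862 and 2412 for rescue over KO, and 3431 and 3292 for rescue over WT. At a mean of 5 CPM they were 397 and 243 for KO over WT, 54 and 7 for rescue over KO, and 325 and 162 for rescue over WT. With rows summed, 110 were higher and 48 lower in rescue against KO, beside 174 and 77 as reported.

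Over the 139 listed genes, the counts without the filter were 13 higher and 11 lower in KO against WT, beside 3331 and 3606 of all 46316 genes. The reported counts, 8 and 6, cover only the listed genes with a mean of 1 CPM or more. Without the filter 6 were higher and 6 lower in rescue against KO (2 and 0 as reported), beside 2862 and 2412 of all genes. In rescue against WT 13 were lower without it (7 as reported), beside 3292 of all genes. Beside the reported counts, the shares over the 13381 genes that passed the filter were 5.35% higher and 4.07% lower in KO against WT. In rescue against KO these shares were 1.30% and 0.575%, and 3.06% of the same genes were lower in rescue against WT. The list counts were not tested against these shares. The 2 higher in rescue against KO became 1 with rows summed, with 2 added or with the length trend removed, and the 7 lower in rescue against WT became 3 with rows summed. Of the list medians, 12 moved by 0.1 or more on the log2 scale and 150 did not. The proteases moved to -0.09 with rows summed and -0.13 without the filter for KO over WT, and to -0.13 and -0.12 for rescue over WT. Without the filter the fibroblast markers moved to 0.20 for KO over WT and 0.15 for rescue over WT, the mural markers to 0.03 for KO over WT and the related genes to 0.05 for rescue over WT. With the length trend removed the fibroblast markers moved to -0.10 for rescue over KO. The causes were not tested. Under the length of the shortest row, added after the data were seen, 3 of 18 levels moved, all of Pdgfb, to 25.8 TPM in KO, 23.0 in rescue and 10.8 in WT. Depth limits Pdgfd most, with 2 and 5 counts in KO and rescue.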

Other observations

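The nearest measured protein-coding genes on either side of each member, in RefSeq gene order, were read as values. Beside Pdgfd, Casp12 had 1330 counts in KO, 1201 in rescue and 906 in WT, and Dync2h1, a motor protein of cilia, had 362 in KO, 233 in rescue and 176 in WT, so both had more counts in KO, where Pdgfd was nearly absent. Beside Pdgfrb, Camk2a had 805 counts in KO, 1140 in rescue and 833 in WT, and Hmgxb3 had 614 in KO, 627 in rescue and 651 in WT. Beside Pdgfra, Chic2 had 234 counts in KO, 272 in rescue and 284 in WT, and Srd5a3 had 143 in KO, 122 in rescue and 198 in WT. Beside Pdgfb, Cbx7 had 239 counts in KO, 229 in rescue and 150 in WT (log2 ratio of KO against WT 0.70), and the ribosomal protein gene Rpl3 had 9852 in KO, 9870 in rescue and 8248 in WT (0.28). Beside Pdgfc, Glrb had 318 counts in KO, 307 in rescue and 389 in WT, and Ctso had 320 in KO, 313 in rescue and 257 in WT. Beside Pdgfa, Fam20c had 743 counts in KO, 712 in rescue and 1157 in WT, and Dnaaf5 had 425 in KO, 416 in rescue and 511 in WT. These genes were looked up after the values of the members were seen.

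In rescue against WT, the listed genes Vegfa, Fos and Egr1 passed 2-fold, which they did not do in KO against WT. The reverse held for Itgb3, Ccn2 and Ckm, and this difference between comparisons was not tested. Set directly against KO, rescue gave log2 ratios of 0.06 for Vegfa (interval -0.01 to 0.13) and -0.15 for Fos (interval -0.96 to 0.65). That of Egr1 was -0.28 (interval -0.47 to -0.10). Vegfa had 3318 counts in rescue and 1684 in WT (log2 ratio 1.01, interval 0.92 to 1.09), which fell under 2-fold with library totals (0.975), DESeq2 size factors (0.988) and all rows summed (0.995), the early response gene Fos had 27 in rescue and 59 in WT (log2 ratio -1.09, interval -1.81 to -0.42), and Egr1 had 444 in rescue and 1013 in WT (log2 ratio -1.16, interval -1.33 to -1.0). Pdgfrl, a receptor-like gene without a kinase, had 211 counts in KO, 222 in rescue and 201 in WT, and no pair of these was 2-fold apart.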
